A study of Mus musculus with 14 samples.

Results

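Expression of the NF-κB subunits and of the IκB kinases was followed by taking every non-control probe whose gene name on the array equals 1 of 10 symbols. These were the 5 subunit genes *Rela*, *Rel*, *Relb*, *Nfkb1* and *Nfkb2*, and the 5 genes of the IκB kinases, *Chuk*, *Ikbkb*, *Ikbkg* (a regulatory subunit), *Ikbke* and *Tbk1*. They are 10 of 27962 gene names and 19 of 41174 probes on the array. The rule for taking probes uses gene names and no measured value. *p65*(-/-) mouse embryonic fibroblasts (MEFs) had been given lentiviruses coding for wild type p65, for either of 2 lysine mutants, or for nothing (the empty vector pTV). KTR carries arginine in place of lysines 310, 314 and 315 of p65, and K314/315R in place of lysines 314 and 315 only, so that these residues cannot be acetylated. After an overnight starvation all 4 lines received 30 ng/ml mouse TNFα and were harvested at 3 h, and an untreated (0 h) harvest was analysed for wild type p65. Each array held total RNA of 1 culture, and each group had 3 of them except K314/315R, which had 2. Every group shares the disrupted endogenous *p65* gene and the blasticidin selection that followed infection, and they were used as pools of infected cells rather than as clones. Untreated pTV, KTR and K314/315R cells were not analysed here, so a difference between cell lines at 3 h contains both the difference before TNFα and the difference in the response to it.

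NF-κB proteins are dimers of the Rel family that sit in the cytoplasm bound to IκB inhibitors until a kinase complex marks the inhibitor for degradation. In the canonical route TNFα acts through IKKα (*Chuk*), IKKβ (*Ikbkb*) and the regulatory subunit NEMO (*Ikbkg*), and p65 with p50 (made from the *Nfkb1* precursor p105) enters the nucleus. In the non-canonical route the p100 precursor coded by *Nfkb2* is cut to p52, which pairs with RelB, while IKKε (*Ikbke*) and TBK1 are related kinases known for activating interferon regulatory factors.

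Promoter sequences are given for the members whose upstream sequence holds the κB consensus and for the member with the greatest difference between cell lines. The set of RefSeq promoters used here (GRCm38.p6) held 12 promoters of 7 of the 10 genes and no entries for *Relb*, *Nfkb1* and *Ikbkb*. The κB consensus, searched on both strands in the 250 bases before each start, matched 4 of these 12 promoters, those of *Rel* (1) and *Nfkb2* (3), and 1281 of 32851 promoters of all genes (3.9%). In the sequences below, written 5′ to 3′ on the strand of the gene, capitals mark the matched letters. A match is a description of the letters and not a measured binding site. The first promoter of *Nfkb2* (chr19:46304487-46304736, plus strand) holds overlapping matches that begin 39 and 38 bases before the start and another at 11 bases. The *Rel* promoter (chr11:23770970-23771219, minus strand) holds overlapping matches at 92 and 91 bases. The *Ikbke* promoter (chr1:131279564-131279813, minus strand) holds no match in this window. For promoters 2 and 3 of *Nfkb2* only the 30 bases around the match are shown (chr19:46305449-46305478 and chr19:46305695-46305724, plus strand).
Nfkb2 promoter 1: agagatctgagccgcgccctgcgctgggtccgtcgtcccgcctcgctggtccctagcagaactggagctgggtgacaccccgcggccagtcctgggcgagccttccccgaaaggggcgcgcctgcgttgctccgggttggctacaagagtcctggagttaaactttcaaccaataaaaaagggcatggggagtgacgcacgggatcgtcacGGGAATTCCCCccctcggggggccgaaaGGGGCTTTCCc
Nfkb2 promoter 2, site: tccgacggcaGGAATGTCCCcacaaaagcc
Nfkb2 promoter 3, site: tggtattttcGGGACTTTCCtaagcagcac
Rel promoter: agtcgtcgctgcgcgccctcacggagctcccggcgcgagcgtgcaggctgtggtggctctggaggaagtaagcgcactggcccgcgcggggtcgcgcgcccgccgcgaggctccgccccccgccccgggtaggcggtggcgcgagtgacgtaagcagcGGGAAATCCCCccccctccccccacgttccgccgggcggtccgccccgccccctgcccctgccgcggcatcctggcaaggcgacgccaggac
Ikbke promoter: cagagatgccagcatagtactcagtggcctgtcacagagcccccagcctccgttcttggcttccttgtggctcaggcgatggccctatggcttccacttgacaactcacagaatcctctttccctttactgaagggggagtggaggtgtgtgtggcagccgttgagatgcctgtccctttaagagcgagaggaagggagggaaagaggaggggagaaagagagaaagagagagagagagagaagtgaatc

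Values are log2 of the background-corrected intensity of a probe minus the log2 of the 75th percentile of that array, so that a difference of 1 is a 2-fold change and 0 is the intensity of the 75th percentile. Levels are compared between groups for 1 probe and never between probes. That percentile lay between 967 and 1442 intensity units, and 49.9% to 57.7% of the spots of an array were well above background. Of the 19 probes, 17 (9 genes) passed the filter, which asks that all arrays of some group read well above background, and were tested with limma among 22172 such probes, and a probe is called where its Benjamini-Hochberg adjusted p is under 0.05. All 7 fibroblast markers were measured, 6 of them well above background on all 14 arrays, and of the 7 *Pdgfrb* was higher (1.99, limma adjusted p = 6.13e-06) and *Thy1* lower (-1.19, adjusted p = 8.53e-05) with wild type p65 than with pTV. The leukocyte markers *Ptprc*, *Emr1* and *Itgam*, the endothelial markers *Pecam1*, *Cdh5* and *Kdr* and the epithelial markers *Cdh1* and *Epcam* were well above background on no array. The other leukocyte markers were well above background on 13 (*Csf1r*) and 6 (*Cd68*) of 14 arrays. The other epithelial markers were so on 14 (*Krt8*) and 5 (*Krt18*). The keratin genes *Krt8* and *Krt18* were called lower with wild type p65 than with pTV. *Krt18*, not well above background on most arrays, had group means of -2.94 with pTV and -5.53 to -4.72 in the other groups. The 4 epithelial markers summed to 0.308 to 0.382 of the 75th percentile on the pTV arrays against 0.171 to 0.260 on all others. The 5 leukocyte markers summed to 0.167 to 0.196 with pTV against 0.119 to 0.187. Whether this has a part in the differences from pTV described below was not tested. Fewer cells of a type and less RNA per cell cannot be told apart in RNA from whole cultures.

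The targeted gene was examined first. *Rela* codes for p65 itself and was read by 2 probes. Probe 1 gave 1.52, 1.52 and 1.54 on the wild type arrays at 3 h, 1.39, 1.54 and 0.79 on the KTR arrays, and 1.54 and 1.87 on the K314/315R arrays. It gave 1.00, 1.19 and 1.34 with pTV and 1.04, 0.97 and 1.03 in untreated wild type cells. *Rela* signal was thus present in cells that lack a functional *p65* gene, and the pTV values of probe 1 lay within the range of its KTR values. Probe 2, which is printed in 10 spots, gave -2.07, -1.91 and -1.88 with wild type p65 at 3 h and -2.84, -2.53 and -2.31 with pTV. Here every wild type array lay above every pTV array, a difference of 0.61 ± 0.16 (SE, limma adjusted p = 0.0218), while probe 1 differed by 0.35 ± 0.17 (adjusted p = 0.213). Probe 2 gave -2.61, -2.65 and -2.49 in untreated wild type cells, which overlapped with pTV. KTR gave -2.26, -2.16 and -1.99 and K314/315R -2.06 and -1.51 with this probe, so that all lines given a form of p65 were above pTV at 3 h. K314/315R was called over pTV (0.78 ± 0.18, adjusted p = 0.0072), and KTR was called only when replicates were paired (0.42 ± 0.11, adjusted p = 0.019, against 0.0991 unpaired). The call for wild type p65 over pTV was lost without any 1 of 4 arrays (wild type replicate 2 or 3, pTV replicate 1 or 2, adjusted p up to 0.0809), and that for K314/315R without K314/315R replicate 2 (adjusted p = 0.0966). Neither probe was called between wild type p65 and the mutants at 3 h (limma adjusted p 0.663 and 0.784 for KTR, 0.689 and 0.676 for K314/315R). The sources used here do not say where the probes lie relative to the disrupted part of the gene, or whether they read the introduced cDNA, so these values do not check the labels of the cell lines.

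*Rel*, coding for c-Rel, which is best known from lymphocytes, was well above background on only 2 of 14 arrays. These were 2 of the 3 arrays of wild type p65 at 3 h, at -3.37 and -4.74, and the remaining array gave -4.88. The 11 arrays of the other groups read between -6.27 and -4.61 and were not well above background. The gene was not tested, and no fold is given.

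*Relb* codes for the partner of p52 in the non-canonical dimer. Its probe gave 4.01, 3.88 and 4.02 in wild type cells at 3 h and 2.58, 2.49 and 2.65 in pTV cells at 3 h. Untreated wild type cells gave 3.12, 2.90 and 3.13. The 3 groups did not overlap, and untreated wild type cells lay between the others. KTR cells gave 3.82, 3.64 and 3.82 and K314/315R cells 3.89 and 3.96, all above both of the lower groups. In the order of group means wild type and K314/315R, and K314/315R and KTR, were not called against each other (limma adjusted p 0.875 and 0.393). All KTR arrays were below all wild type arrays, by 0.19 to 0.24 within the slides. KTR exceeded untreated wild type cells by 0.71 ± 0.09 (SE, limma adjusted p = 0.000772), and untreated wild type cells exceeded pTV by 0.48 ± 0.09 (adjusted p = 0.0031).

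*Nfkb1*, the gene for p105 and p50, was read by 4 probes. Probe 1, printed in 10 spots, gave 4.56, 4.50 and 4.55 with wild type p65 at 3 h, 3.70, 3.55 and 3.48 with pTV, and 4.01, 3.86 and 3.99 in untreated wild type cells. These 3 groups were again apart from each other with untreated wild type cells in the middle. KTR cells read 4.60, 4.56 and 4.54 and K314/315R cells 4.42 and 4.28. The mean of K314/315R was 0.19 ± 0.10 below wild type (SE, limma adjusted p = 0.343), and all its arrays were below all wild type arrays. Over pTV, wild type p65 at 3 h was higher by 0.96 ± 0.09 (adjusted p = 8.4e-06) with probe 1, by 0.60 ± 0.15 (adjusted p = 0.0171) with probe 2 and by 0.54 ± 0.11 (adjusted p = 0.00399) with probe 3. Probe 4 gave 0.53 ± 0.20 (adjusted p = 0.114). The call of probe 2 was lost without wild type replicate 1 or 3 or pTV replicate 1 or 2 (adjusted p up to 0.0772). The 4 probes therefore had the same sign, and the fold was 1.94 with probe 1 against 1.45 to 1.52 with the others.

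*Nfkb2*, the gene for p100 and p52, whose promoters hold the matches shown above, gave 3.46, 3.61 and 3.50 with wild type p65 at 3 h. It gave 2.40, 2.64 and 2.73 with pTV and 2.81, 2.74 and 2.70 in untreated wild type cells. The TNFα-treated wild type arrays stood clear of both, and untreated wild type cells overlapped with pTV (difference 0.16 ± 0.12, limma adjusted p = 0.363). KTR cells gave 3.27, 3.43 and 3.45 and K314/315R cells 3.47 and 3.82. All 3 lines that express a form of p65 therefore read above both other groups at 3 h.

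Among the kinases of the canonical complex, *Chuk* (IKKα) probe 1 gave 0.26, 0.39 and 0.37 with wild type p65 at 3 h and 0.30, 0.51 and 0.46 with pTV, which overlap. Untreated wild type cells gave -0.04, 0.19 and 0.11, all below both. Untreated wild type cells were called lower than pTV by limma, with a difference of -0.34 ± 0.10 (SE, adjusted p = 0.0255). Probe 2 was not called in this comparison (-0.26 ± 0.12, adjusted p = 0.159). The comparison was chosen after the data were seen, and 23.7% of all probes were called in it. *Ikbkb* (IKKβ) gave 1.56, 1.41 and 1.31 with wild type p65 at 3 h, 1.75, 1.43 and 1.34 with KTR and 1.70 and 1.13 with K314/315R. It gave 1.68, 1.32 and 1.19 with pTV and 1.35, 1.27 and 1.11 in untreated wild type cells. All 5 groups of *Ikbkb* overlapped, no comparison of it was called, and on the 3 slides that hold the other 4 groups its highest value in each of them was on slide 1.

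*Ikbkg* (NEMO, the regulatory subunit without kinase activity) went the other way over TNFα treatment. Probe 1 gave 0.24, 0.26 and 0.19 in untreated wild type cells and -0.13, -0.19 and -0.18 at 3 h. The groups did not overlap, with a difference of -0.40 ± 0.09 (SE, limma adjusted p = 0.0208). KTR read -0.19, 0.07 and -0.17, K314/315R -0.23 and -0.18, and pTV -0.34, -0.31 and -0.26. Every array at 3 h was below the untreated arrays. Probe 2 gave -0.33 ± 0.09 for the same comparison (adjusted p = 0.0707, or 0.0181 when replicates were paired) and probe 3 -0.08 ± 0.11 (adjusted p = 0.802). Probe 4 was not tested, as none of its arrays read well above background.

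The largest difference of all members was that of *Ikbke*, the gene for the inducible IKK-related kinase IKKε. Its probe gave -0.78, -0.95 and -0.96 with wild type p65 at 3 h and -2.54, -2.68 and -2.84 with pTV. Untreated wild type cells gave -1.70, -1.54 and -1.67. None of these 3 groups overlapped. KTR gave -0.97, -1.10 and -1.20 and K314/315R -0.93 and -1.05. In the order of group means wild type and K314/315R, and K314/315R and KTR, were not called against each other (limma adjusted p 0.726 and 0.679). All KTR arrays were below all wild type arrays, by 0.15 to 0.24 within the slides. KTR was above untreated wild type cells by 0.55 ± 0.10 (SE, limma adjusted p = 0.00621), and these were above TNFα-treated pTV cells by 1.05 ± 0.10 (adjusted p = 1.88e-05).

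*Tbk1*, coding for the related kinase TBK1, was read by 2 probes. Probe 1 gave 0.96, 0.87 and 0.95 with wild type p65 at 3 h, 0.32, 0.33 and 0.36 with pTV and 0.55, 0.49 and 0.46 in untreated wild type cells. KTR gave 0.98, 0.94 and 1.08 and K314/315R 1.29 and 1.18, the highest values of this probe. Wild type cells at 3 h were clear of pTV and of the untreated cells, while the last 2 groups, though not overlapping, differed by 0.16 ± 0.08 (SE, limma adjusted p = 0.156). Probe 2 gave -0.35, -0.51 and -0.49 with wild type p65 at 3 h against -0.73, -1.09 and -1.35 with pTV, and its 5 group means had the same order as those of probe 1.

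**Figure D1:**
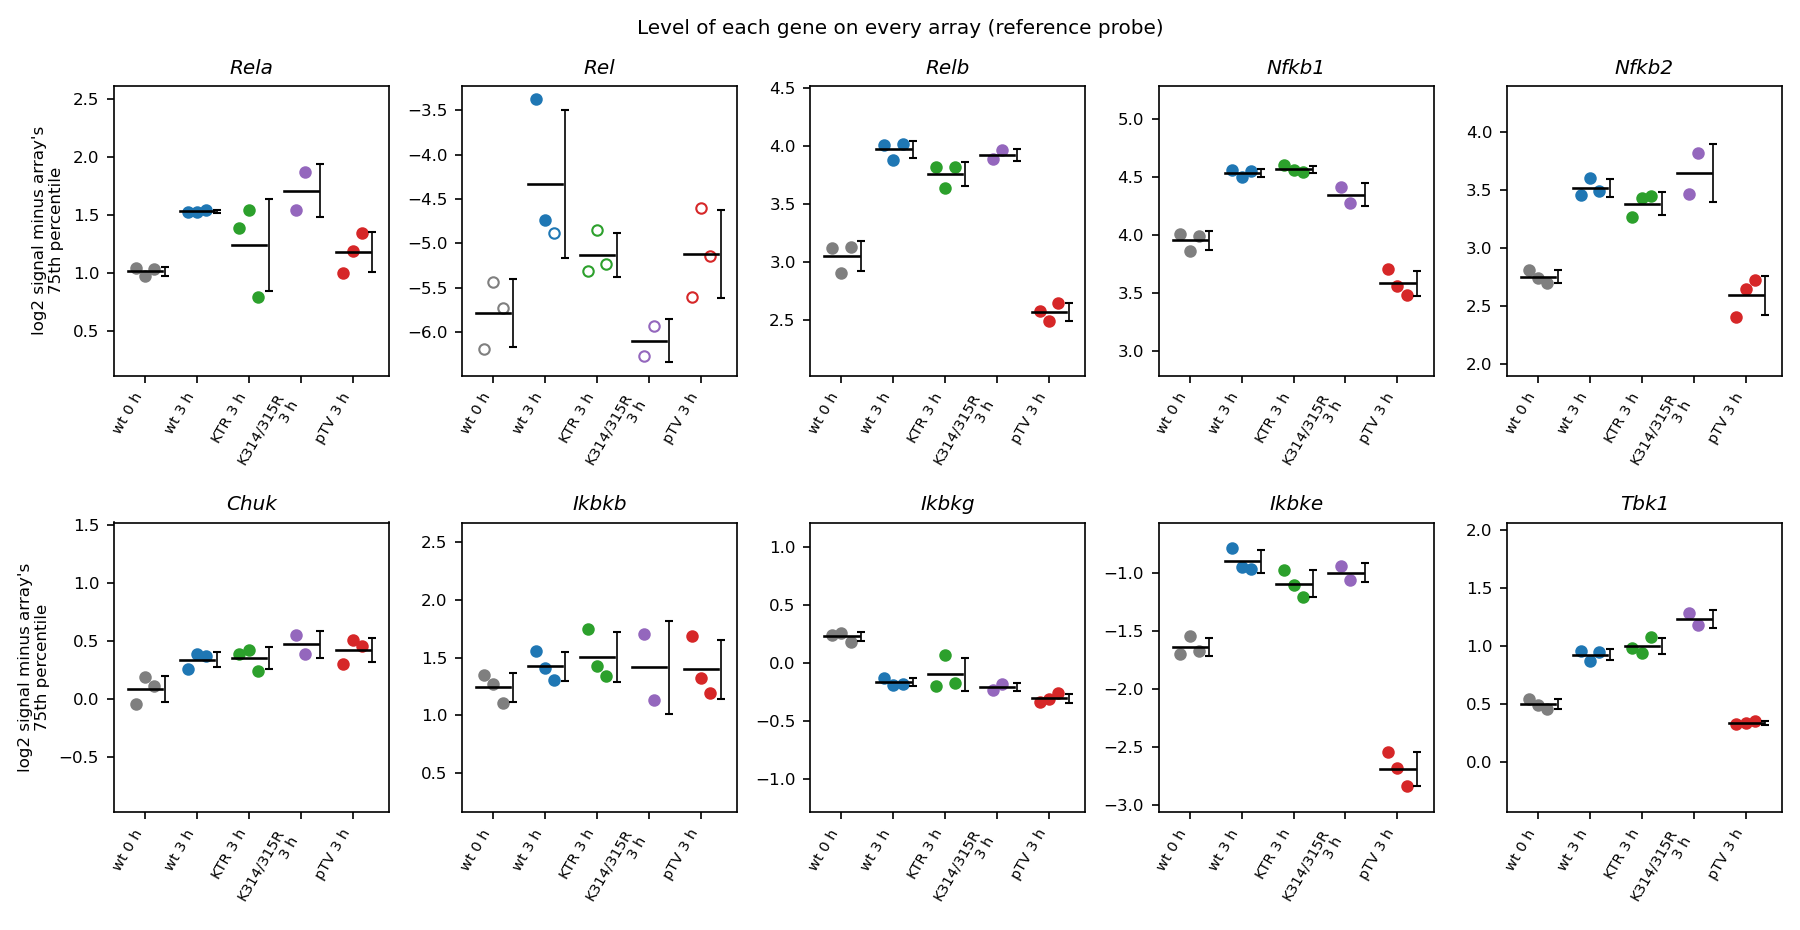
Level of each gene on every array, for probe 1 of the gene (its reference probe). The y axis is log2 signal minus the 75th percentile of the array, points are arrays (open where not well above background), the horizontal line is the group mean and the bar its SD. *Relb*, *Nfkb1*, *Ikbke* and *Tbk1* are lowest in pTV cells, where *Ikbke* reads -2.84 to -2.54.

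The comparison of wild type p65 with the empty vector at 3 h asks which members differ between cells with and without p65 under TNFα. The replicates are cultures with RNA isolated on different days, and no repeated infection is described. An effect of p65 and other differences between the infected pools therefore cannot be told apart. *Ikbke* was 3.46-fold higher with p65 (difference 1.79 ± 0.10, SE, limma adjusted p = 2.35e-07, 3 arrays against 3), *Relb* 2.64-fold (1.40 ± 0.09, adjusted p = 8.58e-07) and *Nfkb2* 1.91-fold (0.93 ± 0.12, adjusted p = 0.000129). *Tbk1* was higher with both probes, by 0.59 ± 0.08 (adjusted p = 0.000181) and 0.61 ± 0.14 (adjusted p = 0.0101). With *Nfkb1* and *Rela* these were 9 of 17 probes (6 of 9 genes) called higher and none called lower, against 14.8% of all probes called in either direction and 8.03% called higher. The median difference was 0.54 over the member probes and -0.03 over all tested probes. Within each of the 3 slides the difference was 1.73 to 1.88 for *Ikbke*, 1.38 to 1.44 for *Relb* and 0.77 to 1.06 for *Nfkb2*. The arrays of the 2 groups did not overlap for 15 of 17 member probes, against 34.4% of all probes. Only *Ikbke* and *Relb* also passed the 2-fold limit that the study used for this comparison, as did 5.04% of all probes. With normexp background correction on all spots only *Relb* was called (1 probe), and 9 probes were called once the spots far below their local background were left out. The genes of the canonical kinase complex were not called, with differences of -0.08 (95% CI -0.29 to 0.13) for *Chuk* probe 1, 0.02 (-0.35 to 0.40) for *Ikbkb* and 0.14 (-0.05 to 0.32) for *Ikbkg* probe 1.

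The comparison of TNFα-treated with untreated cells, both with wild type p65, asks which members respond to TNFα. The genes of 4 subunits and of both IKK-related kinases had a probe called higher after 3 h, and *Ikbkg* had 1 called lower. *Relb* was 1.89-fold higher at 3 h than untreated (0.92 ± 0.09, SE, limma adjusted p = 0.000205), *Nfkb2* 1.71-fold (0.77 ± 0.12, adjusted p = 0.00234), *Ikbke* 1.67-fold (0.74 ± 0.10, adjusted p = 0.00154) and *Nfkb1* probe 1 was higher by 0.58 ± 0.09 (adjusted p = 0.0021). *Tbk1* was higher by 0.43 ± 0.08 (adjusted p = 0.00725) with probe 1. In all 7 probes were called higher and 1 lower (*Ikbkg* probe 1), 47.1% of the 17, against 4.68% of all probes (2.71% higher, 1.97% lower), and the median difference was 0.34 against -0.04 over all tested probes. Of these calls *Tbk1* probe 2 (0.54, adjusted p = 0.0476), *Rela* probe 2 (0.63, adjusted p = 0.0447) and *Ikbkg* probe 1 were near the threshold, and leaving out any 1 of the 6 arrays of this comparison left 5 calls. With normexp background correction on all spots no member was called, and 6 were called once the spots far below their local background were left out. The arrays did not overlap for 13 of 17 member probes, against 30.4% of all probes. *Relb* alone passed the 1.8-fold limit of the methods, as did 1.55% of all probes. This comparison shares the 3 wild type arrays at 3 h with the comparison against pTV, so the 2 sets of differences are not independent.

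**Figure D2:**
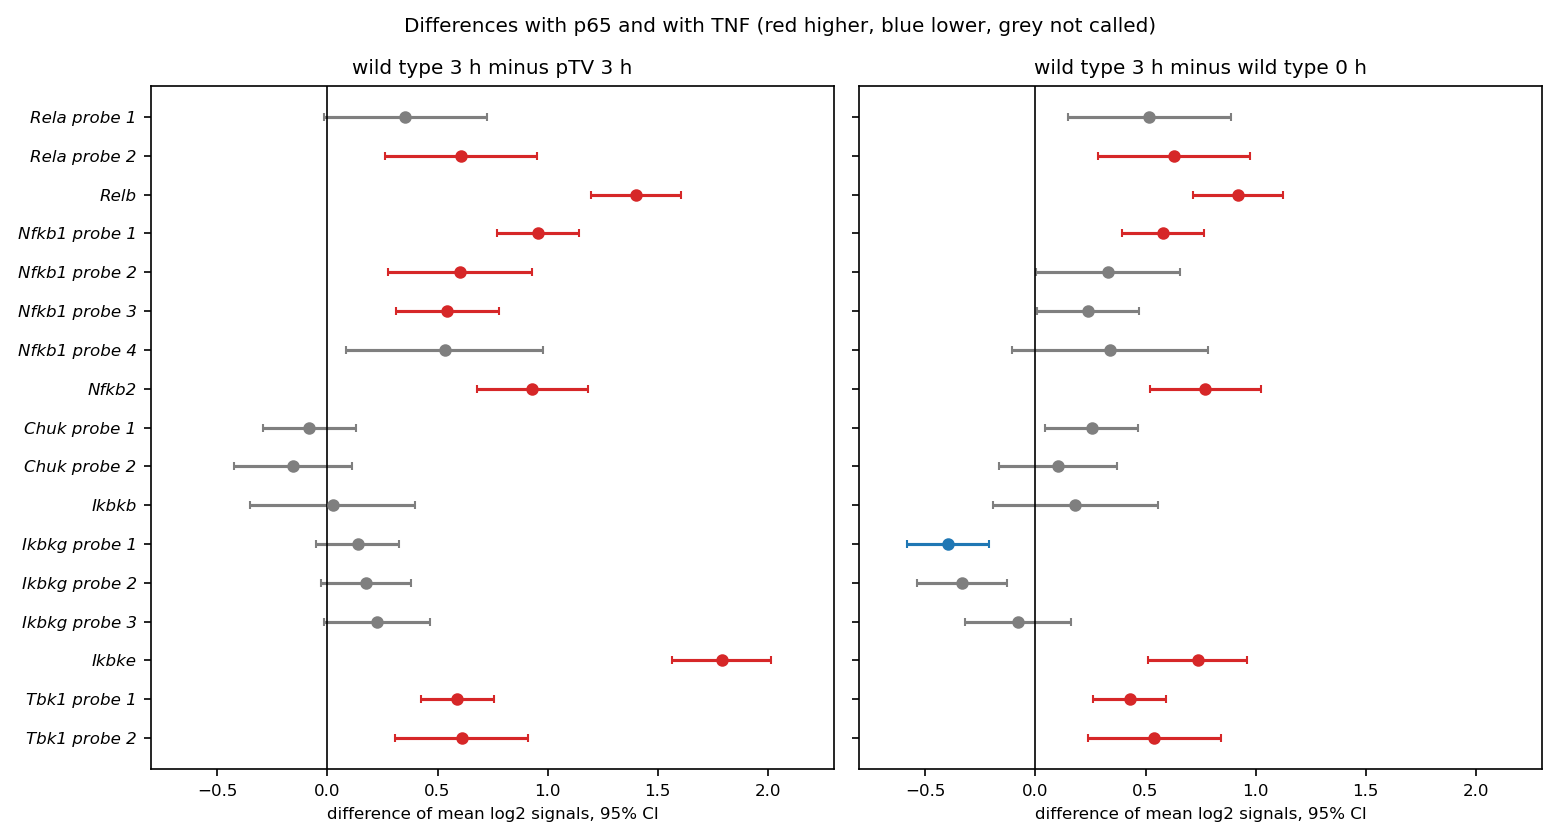
Differences of the 17 tested probes between wild type p65 and pTV at 3 h (left) and between wild type p65 at 3 h and untreated (right). Points are differences of group means of log2 signal and bars are 95% confidence intervals, coloured where called. *Ikbke* (1.79) and *Relb* (1.40) lead on the left, and *Ikbkg* probe 1 (-0.40) is the only probe called lower.

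Compared with untreated wild type cells, which had seen no TNFα, the TNFα-treated pTV cells still had lower *Ikbke* and *Relb* signal. In this comparison of 2 cell lines at 2 times, chosen after the data were seen, 5 of 17 probes were called higher in untreated wild type cells and 1 lower, against 23.7% of all probes. The probes called higher were *Ikbke* (1.05), *Ikbkg* probe 1 (0.53 ± 0.09, SE, limma adjusted p = 0.000845) and probe 2 (0.51 ± 0.09, adjusted p = 0.00212), *Relb* (0.48) and *Nfkb1* probe 1 (0.37). The other 3 probes of *Nfkb1* were not called (adjusted p 0.225, 0.057 and 0.557). Cell line and treatment cannot be told apart here.

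The mutants were compared with wild type p65 to ask whether the lysines bear on these genes. Here too, other differences between the infected pools cannot be told apart from the mutations. For KTR no member was called (0 of 17 with limma, against 0.235% of all probes), and 2 probes had an unadjusted p under 0.05. These were *Relb*, at -0.21 (95% CI -0.42 to -0.01, adjusted p = 0.528), and *Ikbkg* probe 2, at 0.21 (0.01 to 0.42, adjusted p = 0.527). The share of all probes with an unadjusted p under 0.05 is not given, so no difference of the members is read from these 2. The interval for *Ikbke* was -0.42 to 0.03, for *Nfkb2* -0.39 to 0.11 and for *Nfkb1* probe 1 -0.16 to 0.22. For these 3 probes a difference of 1.8-fold in either direction lies outside the interval. The arrays did not overlap for 4 of 17 probes, against 14.7% of all. The median over the members was 0.01 against 0.06 over all tested probes.

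For K314/315R 1 of 17 probes (5.88%) was called, against 2.21% of all probes, and the arrays did not overlap for 8 of 17, against 36.2% of all. *Chuk* probe 2 gave -3.03 and -3.10 on the K314/315R arrays and -2.49, -2.45 and -2.35 on the wild type arrays. It gave -2.48, -2.21 and -2.19 with KTR, -2.30, -2.34 and -2.18 with pTV and -2.26, -2.67 and -2.67 in untreated wild type cells. The 2 mutant arrays were below the 12 others, with a difference from wild type of -0.64 ± 0.14 (SE, limma adjusted p = 0.0369) and a fold of 0.643. Probe 1 of the same gene, designed to the same transcript, gave 0.55 and 0.39 for K314/315R and did not go down (0.13 ± 0.11, adjusted p = 0.589). The call was lost without any 1 of the 5 arrays compared (adjusted p 0.0777 to 0.179), without pTV replicate 2 (adjusted p = 0.0527) or untreated wild type replicate 3 (adjusted p = 0.0533), with both forms of normexp (adjusted p 0.833 and 0.154) and with quantile normalization (adjusted p = 0.113). Both K314/315R arrays were on a slide of their own, so slide and cell line cannot be told apart, and with slide as a random block the adjusted p was 0.136. *Tbk1* probe 1 was above wild type on both arrays, by 0.31 ± 0.09 (adjusted p = 0.0847), and was not called. *Nfkb2* (95% CI -0.16 to 0.40), *Relb* (-0.27 to 0.19) and *Ikbke* (-0.35 to 0.16) were not called.

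**Figure D3:**
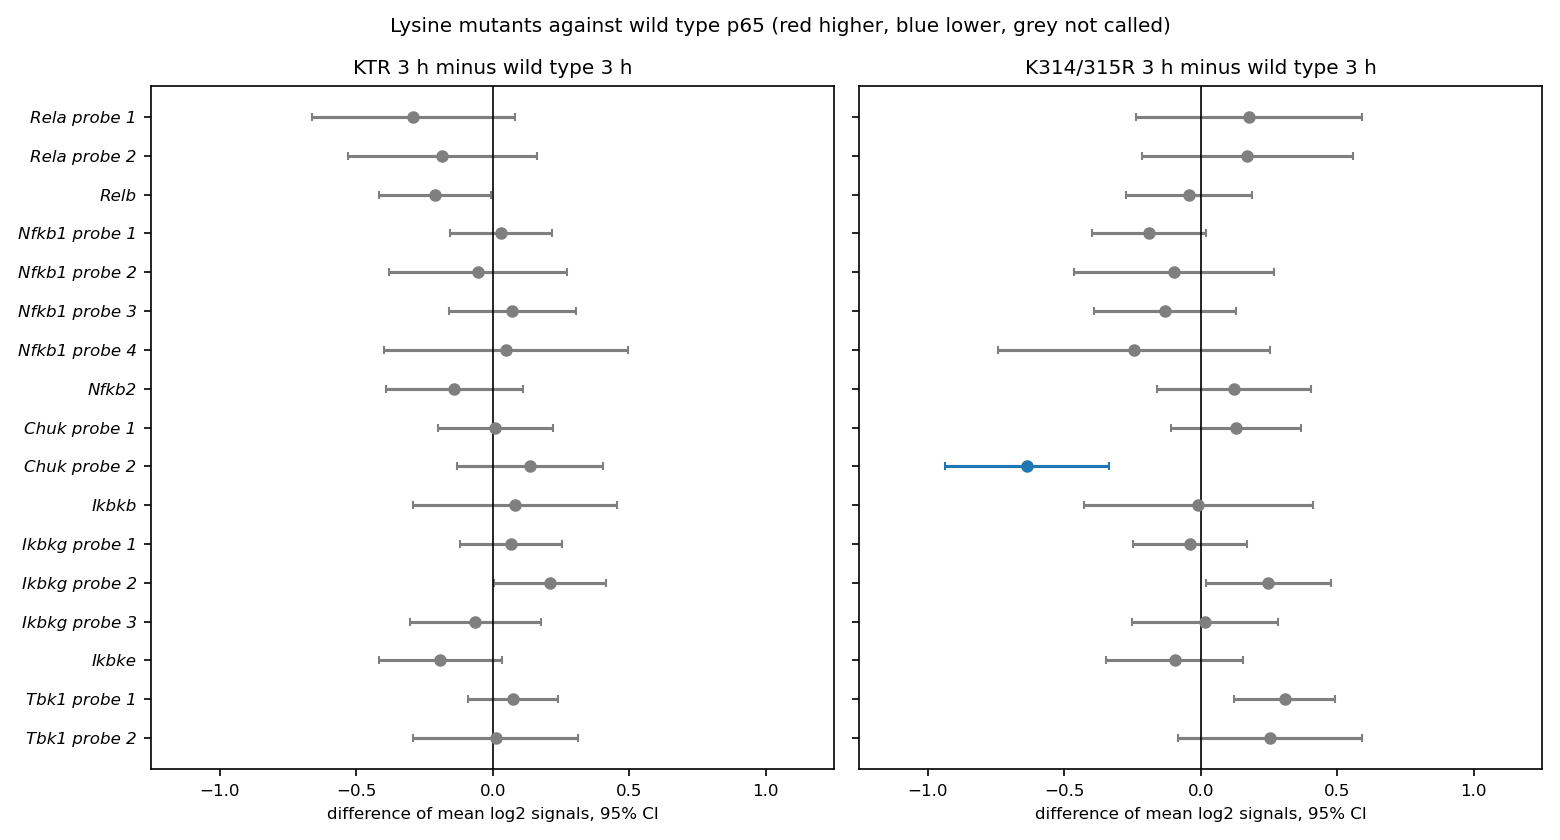
Differences of the 17 tested probes between KTR and wild type p65 (left) and between K314/315R and wild type p65 (right), all at 3 h. Points are differences of group means of log2 signal and bars are 95% confidence intervals. The only called probe is *Chuk* probe 2 in K314/315R, at -0.64.

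Directly compared, KTR and K314/315R differed in 1 of 17 probes, *Chuk* probe 2, which was 0.77 ± 0.14 higher in KTR (SE, limma adjusted p = 0.0125), against 5.41% of all probes. The call was lost without K314/315R replicate 2, which leaves 1 array in that group, and with slide as a random block (adjusted p = 0.0529). It was also lost with normexp background correction on all spots and with only the 2 groups compared. Against pTV, KTR had 9 probes called higher, *Ikbkg* probe 2 (0.39) among them, and none lower (15.2% of all probes called, 9.27% higher). When replicates were paired *Rela* probe 2 and *Nfkb1* probe 4 (0.58 ± 0.17, adjusted p = 0.0349) were called as well. *Ikbke* was higher by 1.60 ± 0.10 (adjusted p = 7.94e-07), *Relb* by 1.19 ± 0.09 (adjusted p = 4.56e-06) and *Nfkb1* probe 1 by 0.99 ± 0.09 (adjusted p = 8.93e-06). K314/315R had 10 probes called higher than pTV, *Ikbkg* probe 2 again among them, and 1 lower, *Chuk* probe 2 (26% of all probes called, 12.5% higher). *Ikbke* was higher by 1.69 ± 0.12 (adjusted p = 1.37e-06), *Relb* by 1.36 ± 0.11 (adjusted p = 4.11e-06) and *Tbk1* probe 1 by 0.90 ± 0.09 (adjusted p = 1.83e-05). Leaving out 1 array gave 8 to 12 calls here, with *Nfkb1* probe 2 lost in 9 and probe 3 in 4 of 14 cases. With normexp background correction on all spots, most of the calls against pTV were lost for both mutants. The counts are given below with the processing. Neither of the comparisons with pTV is independent of the others, since the same 3 pTV arrays enter each.

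Where a gene had several probes, these were set side by side for their pattern over the groups. Both probes of *Tbk1* and all 4 of *Nfkb1* had their lowest group mean in pTV cells. The probes of *Chuk* parted in K314/315R, where probe 1 had its highest group mean (0.47) and probe 2 its lowest (-3.07). For *Ikbkg* the untreated cells were highest with probes 1 to 3, by 0.53 over pTV with probe 1 and by 0.30 with probe 3.

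**Figure D4:**
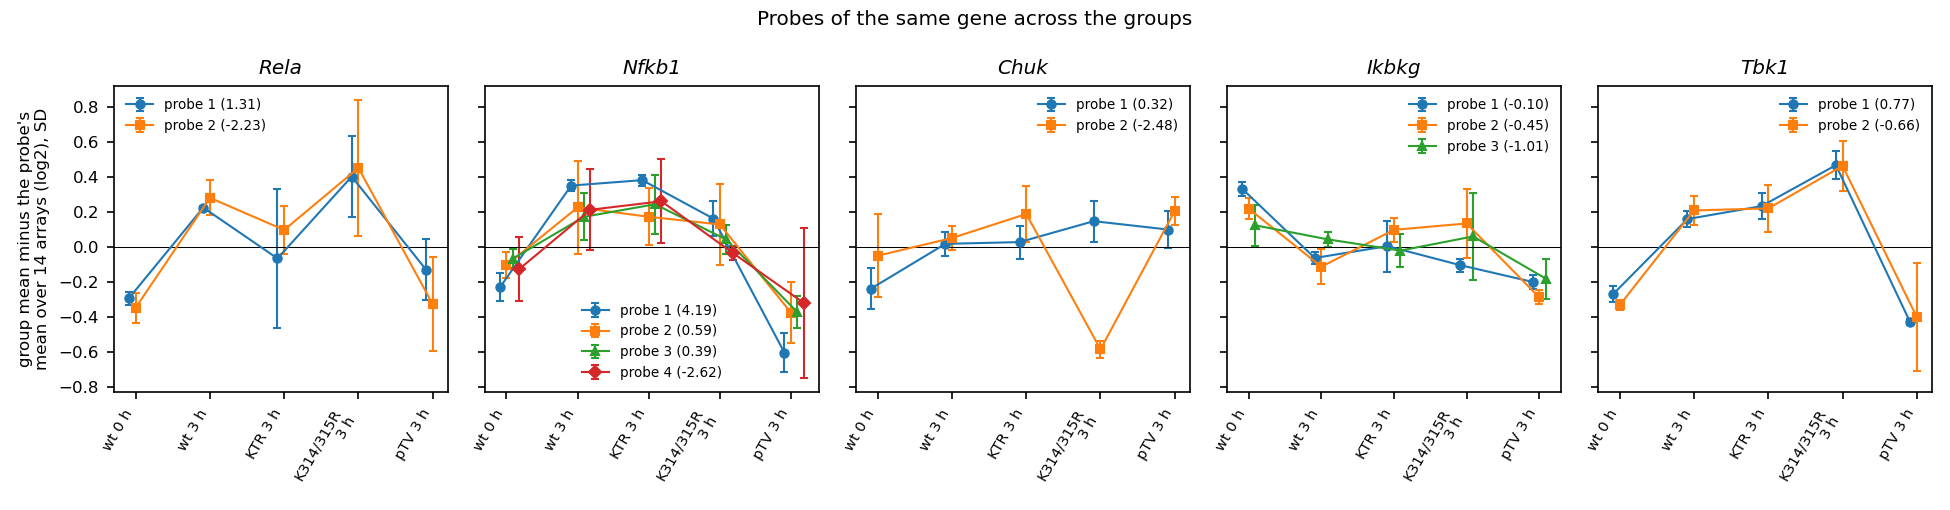
Group means of each tested probe of the 5 genes with several probes, as the difference from the mean of that probe over 14 arrays (given in brackets, log2), with the SD of the group. Lines only join the values of 1 probe. *Chuk* probe 2 falls apart from probe 1 in K314/315R. There the group mean of probe 2 is -3.07 against -2.48 over 14 arrays, and that of probe 1 is 0.47 against 0.32.

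For the 3 members with the widest range of group means among probes measured on all arrays, the genes of most similar pattern were looked for among 12709 genes, by the mean absolute difference of centred log2 values over the 14 arrays. For *Ikbke* these were *Pim1* (0.09), *Tapbpl* (0.11) and *AW049765* (0.11). For *Relb* they were *Gdpd5* (0.11), *4933413A10Rik* (0.13) and *Stat5a* (0.13), and for *Nfkb2* *Ninj1* (0.07), *Parp8* (0.09) and *Malt1* (0.10). The arrays within a group are not separate conditions, so this likeness rests on 5 groups.

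Other genes of the pathway were taken from 3 lists, to be read against the medians of all tested probes given above (-0.03 for p65 and -0.04 for TNFα). For wild type p65 over pTV 8.03% of all tested probes were called higher and 14.8% in either direction. With TNFα 2.71% were called higher. Of 9 measured IκB and feedback genes 7 were called higher with wild type p65 than with pTV and none lower, with a median difference of 1.13. They included the deubiquitinase A20 (*Tnfaip3*, 3.51, limma adjusted p = 1.18e-08), its partner *Tnip1* (2.45, adjusted p = 1.49e-08), IκBε (*Nfkbie*, 2.32, adjusted p = 1.28e-05) and IκBβ (*Nfkbib*, 1.13, adjusted p = 3.33e-06). With TNFα 6 of the 9 were called higher, *Tnfaip3* by 1.94 (adjusted p = 1.68e-05) and *Nfkbie* by 1.47 (adjusted p = 0.00231). *Nfkbie* was the 1 gene of the 3 lists called in a comparison of KTR with wild type p65, at -1.24 (adjusted p = 0.0465), and none was called for K314/315R against wild type p65.

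Of 15 receptor and adaptor genes 6 were called higher with wild type p65 than with pTV and 1 lower, with a median of 0.18. Of all tested probes 8.03% were called higher in this comparison. The ubiquitin ligases *Birc3* (1.32, limma adjusted p = 1.32e-05) and *Birc2* (1.30, adjusted p = 1.82e-06) and *Rnf31* (0.57, adjusted p = 0.000322), a subunit of the linear ubiquitin ligase, were higher. *Tnfrsf1a* (0.38), the TNF receptor, *Traf2* (0.42) and *Traf3* (0.44) were higher by less. *Map3k14*, coding for NIK, the kinase of the non-canonical route, was lower with wild type p65 (-0.79, adjusted p = 0.000813). With TNFα *Birc3* (1.29), *Birc2* (0.54) and *Map3k7* (0.33), which codes for TAK1, were called higher. Of 6 measured adaptors and substrates of TBK1 and IKKε 2 were called higher with wild type p65 than with pTV. These were *Tank* (0.55, adjusted p = 0.00722), an adaptor of both kinases, and the interferon regulatory factor *Irf7* (3.20, adjusted p = 0.00158, well above background on 13 of 14 arrays, lowest array -5.05), and *Tank* was also called higher with TNFα (0.95, adjusted p = 0.000743).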

How the data were processed

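Expression was measured on 14 one-colour Agilent Whole Mouse Genome arrays (Cy3). The authors scanned and extracted them with Agilent Feature Extraction 9.1 and deposited intensities per spot, already background-subtracted (processed signal), with mean and local background intensities and quality marks. Their deposited value table holds the same intensities times 1 factor per array (0.837 to 1.20). The genome build behind the probe annotation was not stated in those sources. Here outlier spots (1 to 326 per array) were left out, spots of a probe averaged, and log2 intensities scaled to the 75th percentile of the array. Probes for which all arrays of some group read well above background were tested, two-sided, with limma 3.58.1 (R 4.3.3) in 1 fit of 5 groups with Benjamini-Hochberg adjustment. The fit was tested on simulated data. Replicates are cultures whose RNA was isolated on different days per the labels. Replicate numbers 1 to 3 coincide with 3 slides that each hold 1 array of 4 groups, and same-numbered arrays deviated together (18 pairs, r 0.358 to 0.728, other pairs -0.603 to 0.192), so the numbers pair them. K314/315R arrays lay on slide 4 and were not paired with the others (same-numbered pairs r -0.134 to 0.471). Precision is limited by how few arrays there are. Every probe of the 10 genes is described, only some of the called pathway genes are named, and members and lists were chosen with earlier results of these data known. Alternatives were background correction by normexp, quantile normalization, the deposited value table, filters, the replicate or slide as a block, fits of 2 groups and leaving out each array.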

Additional observations from a re-analysis of the deposited data

Results flagged for a closer look

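The 2 lysine mutants differed from each other in 1 of 17 probes of the members (5.88%), against 5.41% of all probes. *Chuk* probe 2 was 0.77 higher on the log2 scale in KTR than in K314/315R (SE 0.14, limma adjusted p = 0.0125), which is the tested difference between the effects of the mutants against wild type p65 (0.14 for KTR and -0.64 for K314/315R). All 3 KTR arrays were above both K314/315R arrays. Probe 1 of *Chuk* differed by -0.12 ± 0.11 (SE, adjusted p = 0.567). Over the alternatives of the fit the adjusted p of probe 2 lay between 0.00892 and 1.00. Slide and cell line cannot be told apart for K314/315R.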

How the results depend on the processing

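Recomputing 50 single-probe results under each alternative gave 1200 values, of which 1060 kept direction and side of the threshold, 123 lost the call, 11 gained it and 6 changed sign. The 1200 include fits without an array outside the comparison, and unadjusted p, under which no call can be lost. Of the 50 results, 17 were unchanged with normexp on all spots, 38 with only the 2 groups compared and 42 without the filter on dim probes. The other settings with 50 results kept 46 to 50. *Relb*, *Nfkb2* and *Ikbke* kept the calls against pTV and over TNFα without any 1 array. Normexp on all spots moved most: member probes called fell to 1 for wild type over pTV, 0 for TNFα, 0 for K314/315R over wild type, 4 for KTR over pTV, 2 for K314/315R over pTV and 0 for KTR over K314/315R. On wild type 3 h replicate 1 its fitted background was -1476, or 13.5 without 9 spots far below their local background. With such spots left out, an alternative chosen after seeing the data, the counts were 9, 6, 0, 10, 11 and 1. Calls for K314/315R over wild type were also 0 with quantile normalization, without the filter on dim probes, with only the 2 groups compared, and with slide as a random block. Without the filter 5 probes were called for TNFα. With only the 2 groups compared 7 were called for K314/315R over pTV and 0 for KTR over K314/315R, which also had 0 with slide as a random block and 2 with the authors' value table. At an unadjusted p under 0.05 the counts were 13 for TNFα, 2 for KTR over wild type, 3 for K314/315R over wild type and 4 for KTR over K314/315R. No share of all probes under this rule is set beside them. The fold limits taken from the study were 2 for wild type over pTV and 1.8 for the rest. With these limits the counts were 2 for wild type over pTV, 1 for TNFα, 0 for K314/315R over wild type, 3 for KTR over pTV, 5 for K314/315R over pTV and 0 for KTR over K314/315R.

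With the replicate number as a block 2 probes were called for K314/315R over wild type and 3 for KTR over K314/315R. The number pairs arrays of a slide for the other 4 groups only, since both K314/315R arrays are on slide 4 and share just a number with the rest. The other counts stayed within 1.5 times. Leaving out 1 array gave 7 to 9 calls for wild type over pTV and for KTR over pTV, 8 to 12 for K314/315R over pTV, 5 to 8 for TNFα, 0 to 1 for K314/315R over wild type (0 without any wild type 3 h or K314/315R array, pTV replicate 2 or wild type 0 h replicate 3) and 0 to 1 for KTR over K314/315R (0 without K314/315R replicate 2).

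Changes of sign touched *Rela*, in results that were not called. *Rela* probe 2, K314/315R over wild type, went from 0.17 to -0.23 with normexp on all spots and lay between -0.10 and 0.45 when 1 array was left out. *Rela* probe 1, KTR over pTV, went from 0.06 to -0.034 with normexp without the spots named above and lay between -0.088 and 0.29 when 1 array was left out (-0.01 without KTR replicate 1, -0.03 without pTV replicate 1). Apart from the normexp fit, the causes were not tested. Signal over background limits *Rel* and *Ikbkg* probe 4, which were not tested.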
